A study of Mus musculus with 16 samples.

Results

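The question was whether type 1 conventional dendritic cells (cDC1) without Wdfy4 differ from cells that keep 1 intact copy in how their transcripts change between a lymph node that drains a tumour and one that does not. All 16 arrays of the series entered the comparison, 4 in each of 4 groups, and the groups were taken from the sample titles. The cells had been sorted as cDC1 from digested inguinal nodes of C57BL/6 mice that carried WDFY4 Het or WDFY4 KO as genotype, and every mouse had received regressor tumours in the flank 6 days earlier. Groups therefore shared strain, tumour and day. They differed in genotype (Het or KO) and in the flank the node came from (draining or non-draining), and cells of the draining node are labelled activated and those of the other node unactivated. The control node came from a tumour-bearing mouse, so no group was free of tumour, and no group had 2 intact copies of Wdfy4. For each of 19938 genes the node difference is the draining minus the non-draining level on the scale log2(intensity + 1). The interaction is the KO node difference minus the Het node difference, so that a negative value means that the draining node stood higher, relative to the other node, in Het than in KO cells.

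WDFY4 belongs to the BEACH-domain proteins, and cDC1 require it to present antigens of engulfed cells on MHC class I, the route called cross-presentation, by which they prime CD8 T cells against tumours. Dendritic cells reach a draining node from the tissue or live in the node, and precursors can divide there before they differentiate fully. Interferon gamma from T and NK cells switches on guanylate-binding proteins (GBP), immunity-related GTPases (IRG) and the chemokines CXCL9 and CXCL10, which attract T cells that carry CXCR3.

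The arrays had median intensities between 38.6 and 40.8, and correlated with each other at 0.9716 to 0.9957. With no read depth on arrays, precision is limited by how many there are. Arrays numbered 1 and 2 stood apart from those numbered 3 and 4 on the first principal component, which held 30.7% of the variance, and KO draining array 2 lay farthest out at -44.08, against -19.51 to 18 for the others. What the numbers mark is not given in the labels, so values within each set of numbers are printed beside the main gene groups. The cDC1 markers were bright on every array: the chemokine receptor Xcr1 lay between 1240 and 2495, the dead-cell receptor Clec9a between 1031 and 1777, the transcription factor Irf8 between 2703 and 4082, and Batf3 between 585 and 1138. Whether each array of a group stands for a different mouse is not stated in the labels, so p-values here cover only the spread among the samples, and some of it may be technical.

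Wdfy4 itself read 3332, 3222, 2278 and 2386 in the non-draining node and 3150, 3450, 2766 and 2463 in the draining node of Het cells. In KO cells it read 2356, 3165, 1923 and 2056 and 2181, 2785, 2257 and 1786. The KO minus Het difference was -0.25 in the non-draining and -0.40 in the draining node, but the groups overlapped. Which part of the gene was removed is not stated in the labels, so this probe set does not check the genotype. Its interaction was -0.15 ± 0.25 (limma standard error), and a second probe set of the gene, with a mean of 499, gave -0.14.

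No gene passed the test for a genotype-dependent node response. At a Benjamini-Hochberg adjusted p under 0.05 over all 19938 genes, limma called 0 genes in the interaction (0% of those tested), and the smallest adjusted p was 1. At an unadjusted p under 0.05, 265 genes had the higher response in Het cells (1.33%) and 198 in KO cells (0.993%). Within Het cells 385 genes stood higher (1.93%) and 270 lower (1.35%) in the draining node at that unadjusted threshold, and in KO cells 227 stood higher (1.14%) and 194 lower (0.973%), with 0 at an adjusted p under 0.05 in either genotype. The smallest adjusted p was 0.794 in Het and 1 in KO cells. The standard error of an interaction had a median of 0.176. In simulated data of the same size, an interaction of 1 was called for 73% of 200 changed genes and one of 0.5 for 5%. Noise there was drawn separately for each gene and array, without the shared differences between arrays described above. The shares may therefore not hold for the real arrays. All single-gene values that follow describe these arrays, and their adjusted p is 1 in the interaction. Most of these genes were chosen for a small p on the same arrays. Nodes that separate in 1 genotype and overlap in the other follow partly from that choice. The share of all genes with separate nodes was not counted. Over all genes, 52.3% had a negative interaction, and 52.8% and 50.7% stood higher in the draining node of Het and KO cells.

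Across genes the node differences in Het and KO cells, which share no array, had a Pearson correlation of 0.0774 and a Spearman correlation of 0.0873 over 19938 genes that are not independent of each other. Of the 265 genes with the higher Het response, 246 stood higher in the Het draining node and lower in the KO draining node, 17 stood higher in both and 2 lower in both. Their median node difference was 0.253 in Het and -0.178 in KO cells. The 198 genes with the higher KO response had medians of -0.224 in Het and 0.205 in KO cells, and 192 of them pointed in opposite directions in the 2 genotypes. These directions follow from how the genes were chosen. The plot of the Het against the KO node difference shows both sets of leading genes at the edges of the cloud.

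**Figure D1:**
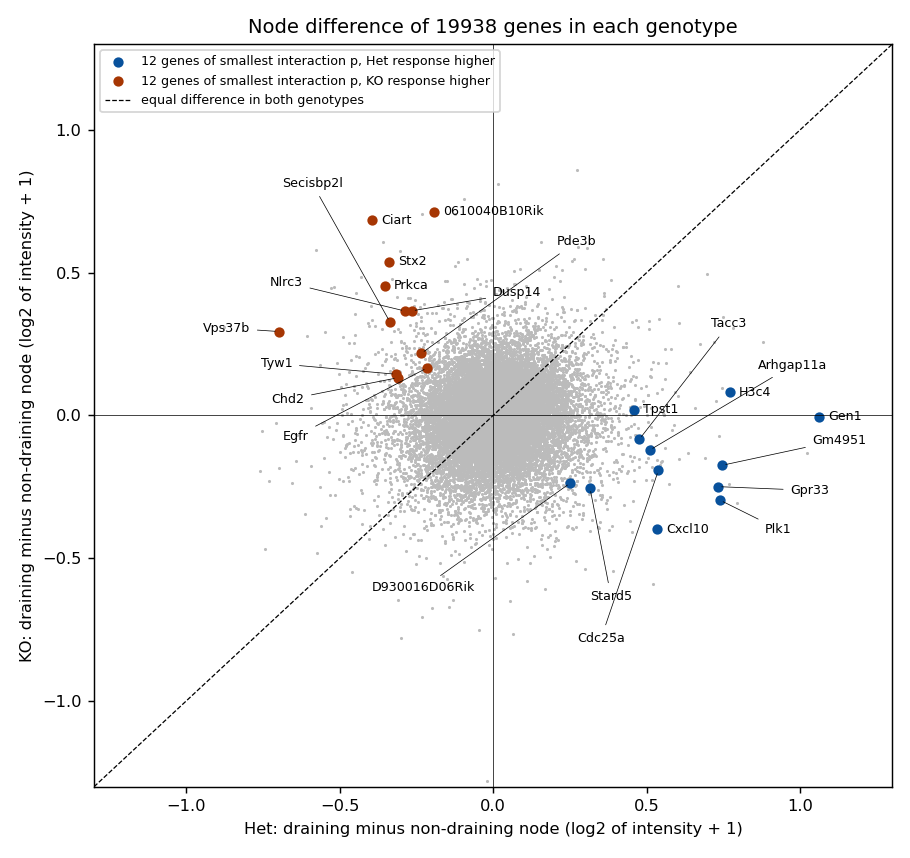
Each grey point is 1 of 19938 genes, with its draining minus non-draining difference in Het cells on the x axis and in KO cells on the y axis, both on the log2(intensity + 1) scale; the dashed line marks equal differences. The 12 genes of smallest interaction p in each direction are coloured, and Gen1 lies farthest right at 1.06 in Het and 0.00 in KO cells.

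Genes that act in mitosis stood higher on average in the draining node of Het mice, while the KO nodes had nearly equal averages. No member passed the test after adjustment. Of 37 measured members of a mitosis list, 36 had a negative interaction, against 52.3% of all genes. An unadjusted p under 0.05 was found for 8 members, all 8 with the higher Het response, against 1.33% of all genes in that direction. The list's median interaction was -0.36, against -0.01 over all genes. All 37 members stood higher in the draining node of Het mice, against 52.8% of all genes, with a median of 0.33. Among them 13 did so at an unadjusted p under 0.05, against 1.93% of all genes. In the KO draining node 15 of 37 stood higher, against 50.7% of all genes, with a median of -0.01. KO cells stood above Het cells in the non-draining node by a median of 0.13 and below them in the draining node by -0.22, so both nodes entered the interaction. Averaged over the list, the level on the 4 Het arrays was 6.12, 5.96, 5.94 and 5.77 in the non-draining node and 6.51, 6.46, 6.21 and 6.04 in the draining node. The KO arrays read 6.13, 6.07, 5.93 and 6.08 in the non-draining and 5.92, 6.204, 6.10 and 5.97 in the draining node. In Het cells 3 of the 4 draining arrays exceeded every non-draining array. Het draining array 4 lay below Het non-draining array 1, so the nodes of both genotypes overlapped. In bulk samples, fewer dividing cells and less of a transcript per cell cannot be told apart.

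Plk1, the kinase that drives entry into and progress through mitosis, read 139.5, 104, 78.7 and 72.9 in the non-draining node and 201, 221, 129.9 and 114 in the draining node of Het cells. In KO cells the non-draining and draining arrays read 102, 122, 87.6 and 117 and 88.2, 85.3, 91.8 and 80.3. The 4 KO draining arrays were below all Het draining arrays, and 2 of the 4 were below all KO non-draining arrays. Its node difference was 0.74 in Het and -0.30 in KO cells, an interaction of -1.03 ± 0.30. Top2a, the topoisomerase that untangles chromosomes before they separate, read 85.7, 67.6, 91.0 and 78.0 in the non-draining node and 149, 134, 111 and 97.0 in the draining node in Het cells. In KO cells it read 102, 85.9, 71.9 and 105 and 76.1, 102, 90.1 and 86.1. Het draining arrays were all above the non-draining ones, and the KO nodes overlapped, with node differences of 0.59 and -0.03 and an interaction of -0.62 ± 0.21. Cdk1, the kinase that triggers mitosis, read 170.1, 154, 142 and 153 in the non-draining node and 239.8, 255, 231 and 191 in the draining node in Het cells and 208, 129, 171 and 202 and 145, 153, 216 and 195 in KO cells. Again the Het nodes were separate and the KO nodes were not, which follows in part from how these genes were chosen. The node differences were 0.56 and 0.00. Bub1, a kinase of the spindle checkpoint, stood higher in the draining node of both genotypes, by 0.67 in Het and 0.25 in KO cells. Bub1b, a further checkpoint gene, was the 1 member with a positive interaction, at 0.12.

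Cdc25a, the phosphatase that activates cyclin-dependent kinases, was among the leading genes outside the list. It read 67.1, 55.1, 53.0 and 61.9 in the non-draining node and 100.5, 84.3, 95.2 and 68.3 in the draining node of Het cells. In KO cells it read 86.9, 81.2, 71.5 and 83.0 and 57.8, 70.7, 78.5 and 76.0. The Het nodes did not overlap, and the KO draining node was the lower on average, with node differences of 0.54 and -0.19 and an interaction of -0.73 ± 0.18. Tacc3, which stabilises spindle fibres, had node differences of 0.48 in Het and -0.08 in KO cells. Gen1, an enzyme that resolves DNA joints left by recombination, read 20.98, 12.02, 19.4 and 19.9 in the non-draining node and 42.4, 44.7, 34.02 and 32.4 in the draining node in Het cells. In KO cells it read 35.4, 16.5, 17.7 and 17.4 and 25.4, 18.1, 21.3 and 18.3. Every Het draining array was above the Het non-draining arrays, by 2.09-fold on the fitted scale. One KO non-draining array, number 1, lay apart from the other 3, and the KO node difference was 0.00.

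Promoter sequence is a feature that the arrays did not enter. The list holds known mitosis genes, so its motif shares would be the same whatever the arrays showed. They do not bear on the genotype difference. The CHR element (TTTGAA) and the CCAAT box, short motifs known from promoters of genes active late in the cell cycle, were searched on both strands of RefSeq promoters of build GRCm38.p6, from 250 bases before to 50 after each start. Of the 31 mitosis genes with a promoter in the table, 25 held TTTGAA (80.6%) and 21 held both motifs (67.7%). Over 15614 measured genes with a promoter the shares were 17.3% and 6.89%. Of 33 genes on the DNA replication list 4 held TTTGAA (12.1%). Among the division genes named above, Plk1, Top2a and Cdk1 held both motifs. The promoters of Cdc25a and Bub1 held CCAAT but not TTTGAA, and those of Gen1 and Tacc3 held neither. A match of letters is not shown to be a bound site. The promoters of Plk1 (chr7:122159185-122159484, plus strand) and Top2a (chr11:99024140-99024439, minus strand) are shown, 5′ to 3′ along the gene, since these 2 members had the smallest interaction p of the list; capitals mark TTTGAA and CCAAT or their reverse complements.
Plk1: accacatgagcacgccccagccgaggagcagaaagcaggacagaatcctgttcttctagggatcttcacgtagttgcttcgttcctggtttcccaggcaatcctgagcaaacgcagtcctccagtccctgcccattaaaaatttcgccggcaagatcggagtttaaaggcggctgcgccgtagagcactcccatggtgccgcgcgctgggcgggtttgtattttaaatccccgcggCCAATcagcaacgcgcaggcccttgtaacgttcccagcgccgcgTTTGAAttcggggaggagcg
Top2a: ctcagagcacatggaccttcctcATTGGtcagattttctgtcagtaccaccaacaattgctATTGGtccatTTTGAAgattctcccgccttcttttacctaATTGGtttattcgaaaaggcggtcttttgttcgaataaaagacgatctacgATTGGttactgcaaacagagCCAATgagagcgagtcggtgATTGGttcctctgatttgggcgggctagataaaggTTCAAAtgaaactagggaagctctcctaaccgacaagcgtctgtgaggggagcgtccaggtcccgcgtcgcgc

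Genes that copy DNA had the same direction with smaller values. Of 38 DNA replication genes, 31 had a negative interaction (81.6%, against 52.3% of all genes), and the median interaction was -0.22. Of these, 6 had an unadjusted p under 0.05, against 1.33% of all genes with the higher Het response. Their median node difference was 0.25 in Het cells, where 34 of 38 stood higher in the draining node, and 0.01 in KO cells, where 25 did. The shares over all genes were 52.8% and 50.7%. Prim1, the catalytic part of DNA primase, read 80.6, 62.9, 63.2 and 72.9 in the non-draining node and 94.0, 160.1, 121 and 98.0 in the draining node in Het cells and 73.5, 79.3, 97.4 and 116 and 69.3, 95.7, 124 and 91.5 in KO cells. The Het nodes were separate and the KO nodes overlapped; the interaction was -0.68 ± 0.27. Mcm7 and Mcm6, subunits of the replicative helicase, had interactions of -0.53 ± 0.20 and -0.44 ± 0.20, and Ung, which removes uracil from DNA, -0.32 ± 0.13. Mcm6 had means of 251 and 259 in the KO non-draining and draining nodes and 177 in the Het non-draining node, while the Het draining arrays lay between 207 and 327, so KO cells of either node lay within the range of the Het draining node on average. Among 26 measured replication-dependent histone genes, whose transcripts accumulate in S phase, 18 had a negative interaction (69.2%, against 52.3% of all genes). Their median was -0.09, or -0.22 without KO draining array 4 and -0.27 on arrays 3 and 4. H3c4 had node differences of 0.77 in Het and 0.08 in KO cells, with KO means of 64.5 and 67.9 in the 2 nodes and Het means of 37.5 and 65.2. H2bc22 pointed the other way, at -0.11 and 0.31. Copies of histone genes are nearly identical, so their probe sets may share signal.

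The median interaction had the same sign in both sets of arrays for mitosis and for DNA replication. Both sets are parts of the arrays that gave the interaction, and the lists were chosen with earlier results of these data known. A sign shared by the sets, here and for other lists, is therefore no independent test. Members of a list are not independent of each other, so counts of members do not stand for replicates. The mitosis list had a median interaction of -0.47 on arrays numbered 1 and 2 and -0.28 on arrays 3 and 4, with 33 and 32 of 37 members negative, and 35 of 37 without KO draining array 2. DNA replication had -0.32 and -0.13, with 28 and 27 of 38 members negative; leaving out Het draining array 2 gave -0.14. T cell markers had the opposite sign, with a median interaction of 0.48 and summed intensities of 2198 to 4001, 2067 to 3645, 1647 to 3873 and 2437 to 4308 in the Het non-draining, Het draining, KO non-draining and KO draining groups. B cell, plasma cell and plasmacytoid dendritic cell markers had the sign of the cell cycle lists, with medians of -0.16, -0.07 and -0.10. On arrays 1 and 2 the B cell median was 0.14. The part of these cells, T cells included, in the cell cycle values was not tested.

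A second list with mostly negative interactions held the IRG and GBP genes. These GTPases are induced by interferon and attack the vacuoles of intracellular parasites. Of 13 measured members 12 had a negative interaction (92.3%, against 52.3% of all genes), and the median was -0.30. Of them 4 had an unadjusted p under 0.05, against 1.33% of all genes with the higher Het response. These were the IRG genes Gm4951, Iigp1, Gm12250 and Irgm1, with mean intensities of 29.9 to 58.6, near the array medians. No GBP gene was among them. All 13 stood higher in the Het draining node, with a median of 0.14, and 6 of 13 in the KO draining node, with a median of -0.12. Over all genes 52.8% and 50.7% stood higher. Gm4951, an IRG gene that RefSeq lists under the further name Ifgga2, had the smallest interaction p of all genes. It read 26.8, 24.96, 28.4 and 23.3 in the non-draining node and 42.2, 46.4, 38.0 and 50.1 in the draining node of Het cells. The KO arrays gave 35.0, 20.1, 28.4 and 22.8 and 27.5, 21.8, 23.7 and 19.4. The 4 Het draining arrays stood above all the other 12 arrays, and the node differences were 0.75 and -0.17, with an interaction of -0.92 ± 0.21. Iigp1 read 30.9, 41.6, 32.6 and 30.4 in the non-draining node and 51.3, 55.2, 46.7 and 85.0 in the draining node in Het cells and 69.6, 24.3, 42.2 and 27.0 and 32.8, 22.3, 40.4 and 33.2 in KO cells, where KO non-draining array 1 stood above most others. Its interaction was -1.01 ± 0.38. Gm12250 and Irgm1, 2 more IRG genes, had node differences of 0.45 and 0.26 in Het and -0.16 and -0.12 in KO cells.

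Among the GBP genes, Gbp4 and Gbp5, with mean intensities of 1180 and 632, had interactions of -0.07 each. Gbp7 had -0.47, and Gbp3 was the 1 positive member, at 0.17. Single arrays turned the sign of 3 of them: without KO draining array 2, Gbp4 had 0.12 and Gbp5 0.13, and without KO non-draining array 2 Gbp3 had -0.10. All of these missed even the unadjusted threshold. The list's median depended on single arrays: it was -0.12 without Het non-draining array 2 or without Het draining array 4, -0.16 without KO draining array 2, -0.18 without Het non-draining array 1 or KO non-draining array 4, and -0.19 without KO non-draining array 3. It was -0.21 on arrays 1 and 2 and -0.29 on arrays 3 and 4, with 9 and 13 of 13 members negative, and 8 of 13 without KO draining array 2. T cell markers had the opposite sign, while B cell, plasma cell and plasmacytoid dendritic cell markers had the same sign. The part of these cells in the interferon values was not tested.

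Cxcl10 and Cxcl9, chemokines that draw T cells to dendritic cells, also had the higher response in Het cells. Cxcl10 read 110.5, 74.2, 69.0 and 84.0 in the non-draining node and 133, 143, 115 and 97.3 in the draining node of Het cells. On the KO side the arrays read 116, 156, 119.6 and 145 and 108, 72.5, 114 and 116. All KO draining arrays were at or below the lowest KO non-draining array, while in Het cells 3 of the 4 draining arrays exceeded every non-draining array. The node differences were 0.53 and -0.40, an interaction of -0.93 ± 0.25. The KO non-draining node (mean 134) and the Het draining node (mean 122) were the 2 high groups. Cxcl9, by far brighter, had means of 1410 ± 328 and 1869 ± 344 (SD, n = 4) in the Het non-draining and draining nodes and 1842 ± 266 and 1678 ± 259 in the KO nodes, with an interaction of -0.55 ± 0.24. Ubd, an interferon-inducible ubiquitin-like protein, had node differences of 0.39 and -0.54, and Cd274, which encodes the checkpoint ligand PD-L1, 0.32 and -0.25. Over the 21 measured genes of the other interferon gamma response, 16 had a negative interaction (76.2%, against 52.3% of all genes). Of these, 4 had an unadjusted p under 0.05, against 1.33% of all genes with the higher Het response. The median was -0.09, or -0.01 without KO draining array 2.

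The type I interferon list changed direction between the sets of arrays. Of 37 members 26 had a negative interaction (70.3%, against 52.3% of all genes). The median was -0.12, but it was 0.24 on arrays 1 and 2 and -0.38 on arrays 3 and 4. Irf7, the factor that amplifies type I interferon, read 251, 323, 175 and 169.7 in the non-draining node and 224, 383, 316 and 253 in the draining node in Het cells and 288, 271, 439.6 and 616 and 309, 416, 221 and 243 in KO cells. KO non-draining arrays 3 and 4 were the 2 highest of the 16, and its interaction of -0.78 ± 0.39 turned to 0.32 on arrays 1 and 2. Eif2ak2, the RNA sensor that stops translation, and Ifih1, the sensor of viral RNA, kept their sign in both sets, with interactions of -0.57 ± 0.22 and -0.45 ± 0.20, and Oas1a had -0.57 ± 0.25.

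The core of the interferon-stimulated response element, searched on both strands as 2 copies of GAAA with any 2 bases between them, was held by the promoters of all 6 IRG and GBP genes with a promoter in the table, by 12 of 26 type I interferon genes (46.2%), by 2 of 15 genes of the other interferon gamma response (13.3%), and by 3.89% of all 15614. Shown are the promoters of Cxcl10 (chr5:92348840-92349139, minus strand) and Gm12250 (chr11:58183593-58183892, plus strand), a chemokine and an IRG gene that hold it; the promoter of Cxcl9 held neither this core nor the gamma-activated sequence. These lists hold known interferon genes, so the shares do not bear on the genotype difference. Capitals mark that core and, in Gm12250, also the gamma-activated sequence TTCNNNGAA, each on either strand.
Cxcl10: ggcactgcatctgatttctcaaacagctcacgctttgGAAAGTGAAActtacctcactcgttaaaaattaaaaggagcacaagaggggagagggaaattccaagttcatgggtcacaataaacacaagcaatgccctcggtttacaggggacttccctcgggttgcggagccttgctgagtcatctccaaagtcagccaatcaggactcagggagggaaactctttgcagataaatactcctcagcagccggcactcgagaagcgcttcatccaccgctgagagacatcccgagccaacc
Gm12250: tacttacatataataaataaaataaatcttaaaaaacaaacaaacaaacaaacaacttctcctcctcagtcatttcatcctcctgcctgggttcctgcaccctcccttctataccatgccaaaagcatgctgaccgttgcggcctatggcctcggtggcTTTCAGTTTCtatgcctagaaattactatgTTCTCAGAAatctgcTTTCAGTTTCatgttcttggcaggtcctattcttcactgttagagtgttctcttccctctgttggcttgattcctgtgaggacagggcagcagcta

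**Figure D2:**
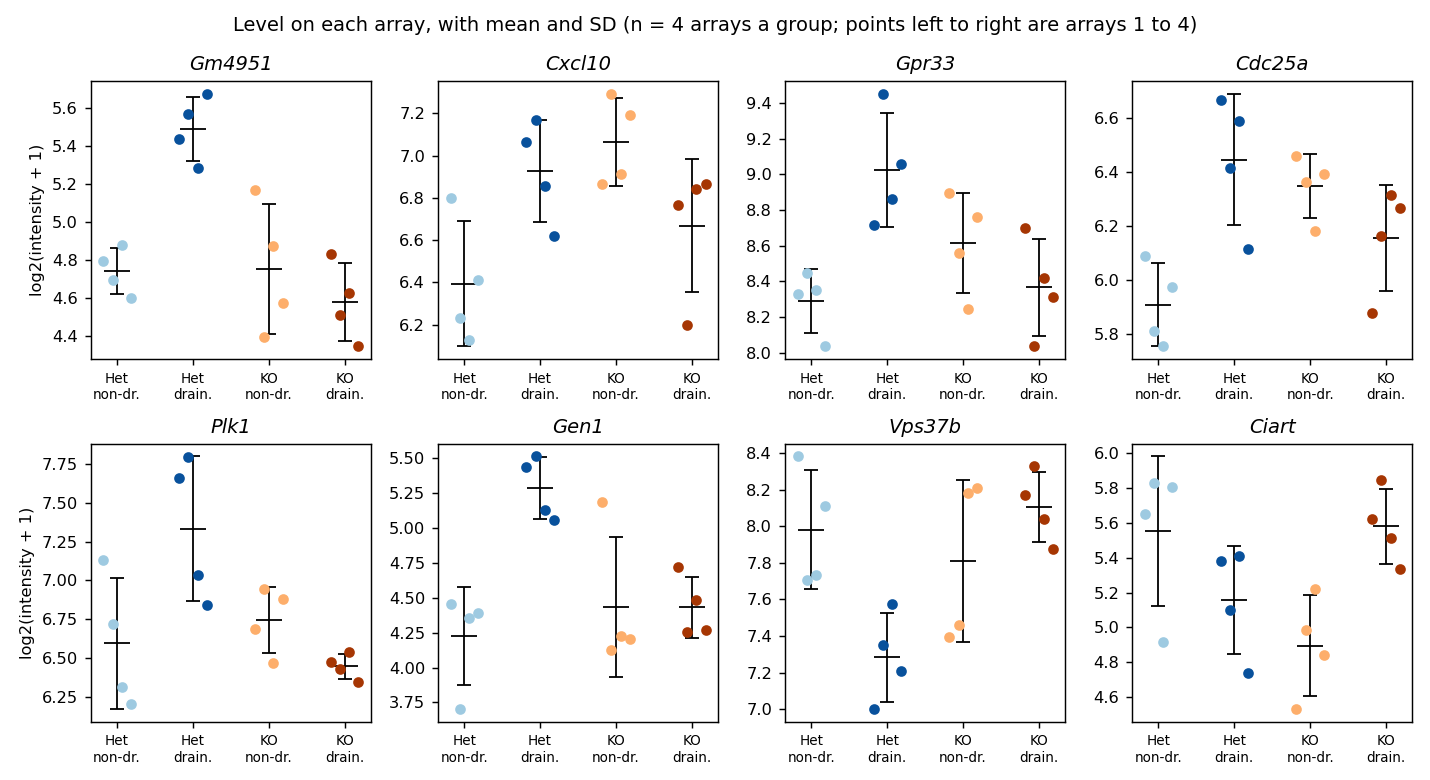
Level of 8 genes on each array as log2(intensity + 1), with arrays 1 to 4 from left to right in each group, and bars for the mean and SD (n = 4 arrays). The first 6 genes stood highest in the Het draining node on average, except Cxcl10, whose KO non-draining mean of 134 was the highest, and in Vps37b the Het draining node was the lowest group.

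Gpr33, an orphan chemoattractant-type receptor that is expressed in cDC1, had the third smallest interaction p among genes with the higher Het response. It read 321, 348, 325 and 261 in the non-draining node and 420.1, 699.6, 465 and 532 in the draining node of Het cells. KO arrays read 475, 376, 302 and 433 and 414, 262, 341 and 317. All Het draining arrays exceeded all Het non-draining arrays, and the KO nodes overlapped, giving node differences of 0.73 and -0.25 and an interaction of -0.98 ± 0.25. It belongs to the list of cDC1 identity genes, where 18 of 24 had a negative interaction (75%, against 52.3% of all genes), with a median of -0.15. The other 6 were positive, at up to 0.21. Gpr33 alone had an unadjusted p under 0.05, against 1.33% of all genes with the higher Het response. Btla, an inhibitory receptor, had -0.45 ± 0.23, and Cd8a, the surface marker of node-resident cDC1, -0.42 ± 0.22. Stard5, a sterol-binding protein, had node differences of 0.32 and -0.25, and Tpst1, an enzyme that sulphates tyrosines of chemokine receptors, 0.46 and 0.02. The uncharacterised transcript D930016D06Rik had 0.25 and -0.24.

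Genes of antigen presentation had small interactions that were mostly negative. Of 16 MHC class I processing genes 13 were negative (81.2%), with a median of -0.07. Of 11 MHC class II genes 10 were (90.9%), with a median of -0.04, and of 27 genes of cross-presentation and vesicle traffic 21 were (77.8%), with a median of -0.05; the share over all genes was 52.3%. Without KO draining array 2 the medians for MHC class I and cross-presentation were 0.08 and 0.00, and without Het non-draining array 2 that for MHC class II was -0.13. Tap1 and Tap2, which pump peptides to MHC class I, had interactions of -0.18 ± 0.16 and -0.27 ± 0.20, and Ciita, the switch of MHC class II genes, -0.43 ± 0.29. The 22 genes of maturation and costimulation had a median of 0.00, or 0.18 without KO draining array 2, with Pdcd1lg2 (PD-L2) at -0.56 ± 0.42, Cd70 at -0.49 ± 0.37 and Cd83 at 0.24 ± 0.18. Without Het draining array 3, Pdcd1lg2 had -0.32 and Cd70 -0.22. The 24 cytokine and chemokine genes had a median of -0.02, or 0.08 without KO draining array 2. With these standard errors, a small value does not show that the 2 genotypes respond alike.

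Sterol synthesis genes stood higher in the Het draining node, with no member past the adjusted test. Of 20 sterol synthesis genes 15 had a negative interaction (75%, against 52.3% of all genes), with a median of -0.18. In the Het draining node 18 of 20 stood higher, against 52.8% of all genes. Cyp51, which removes a methyl group from lanosterol, read 73.4, 79.7, 99.6 and 86.7 in the non-draining node and 99.5, 116, 126 and 113 in the draining node in Het cells and 99.5, 80.4, 91.0 and 100.5 and 90.0, 99.6, 88.8 and 92.7 in KO cells. The Het means were 84.9 and 114 and the KO means 92.9 and 92.8 in the non-draining and draining nodes, an interaction of -0.42 ± 0.15. Msmo1, a further enzyme of the pathway, had -0.65 ± 0.30. The liver X receptors (LXR), which respond to excess sterol, and their targets had a median of 0.21, but 4 of 10 were negative (40%, against 52.3% of all genes), a share that gives the group no clear direction. Mylip, an LXR target that degrades the LDL receptor, read 1340, 1267, 1342 and 1170 in the non-draining node and 1028, 946, 1060 and 1016 in the draining node in Het cells and 1106, 1488, 1284 and 1139 and 1687, 1409, 1180 and 1314 in KO cells. Every Het draining array lay below every Het non-draining array, the KO nodes overlapped, and the interaction was 0.49 ± 0.16. Abca1, the cholesterol exporter, had 0.25 ± 0.12. Both medians depended on the arrays used: sterol synthesis had -0.02 without KO draining array 2, and the LXR list had 0.34 on arrays 1 and 2 but -0.04 on arrays 3 and 4, where sterol synthesis had -0.07.

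Proteasome and respiratory chain genes had many small negative interactions. The counts were 29 of 31 proteasome genes, with a median of -0.16, and 28 of 32 respiratory chain genes, with a median of -0.14. The shares were 93.5% and 87.5%, against 52.3% of all genes. No member of either list had an unadjusted p under 0.05. On arrays 3 and 4 the medians were -0.01 and 0.07, with 17 of 31 and 10 of 32 members negative, and without KO draining array 2 they were -0.06 and 0.00, with 20 and 17 members negative. Psma6, a proteasome core subunit, read 2318, 1776, 2343 and 2711 and 1828, 1303, 1753 and 2640 in the KO non-draining and draining nodes, with array 2 the lowest in each.

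**Figure D3:**
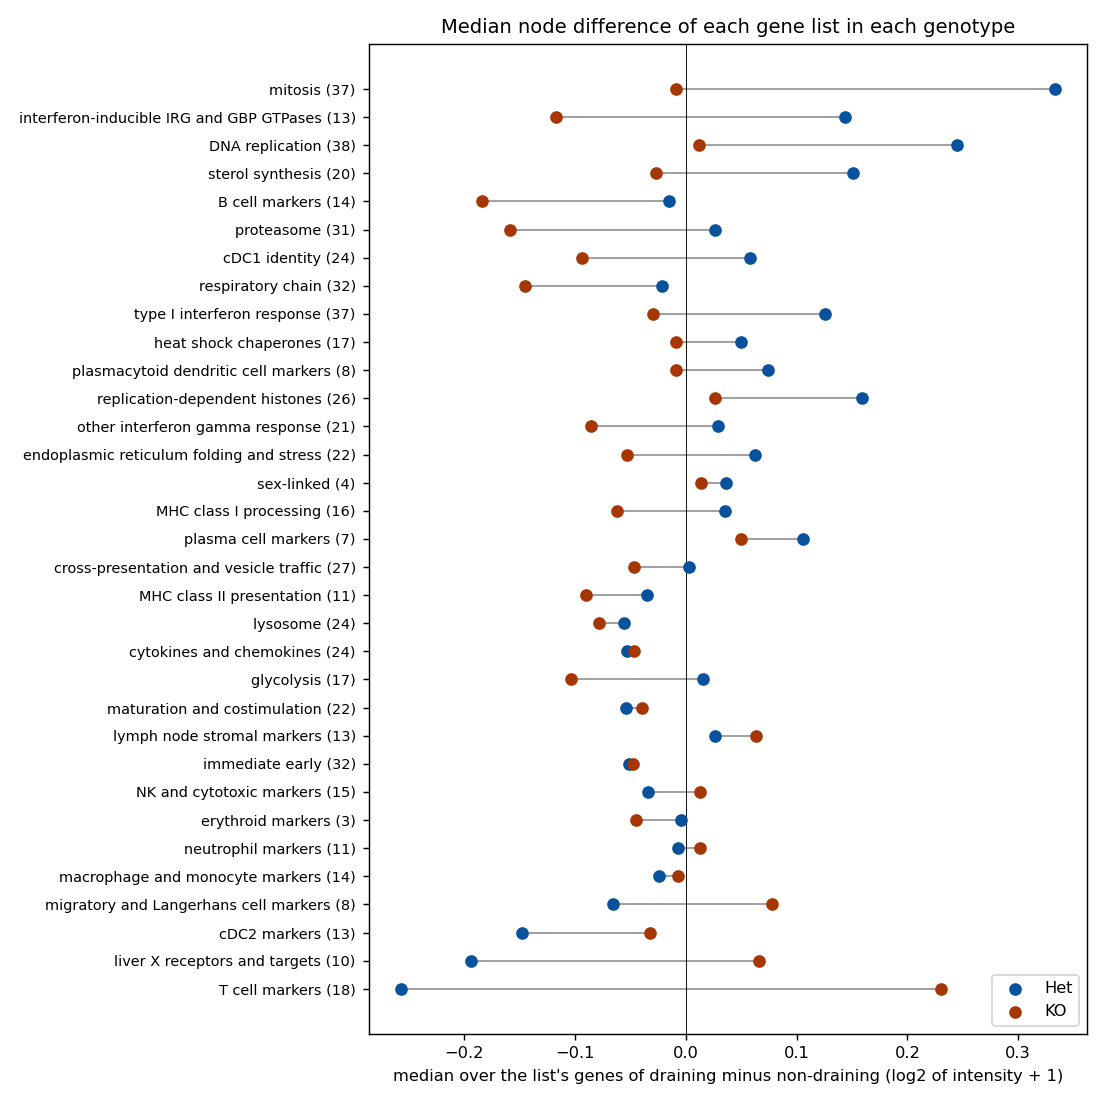
Median draining minus non-draining difference of each of 33 gene lists, in Het cells (blue) and KO cells (brown), on the log2(intensity + 1) scale, with the number of measured genes in brackets. The widest gaps are those of T cell markers (-0.26 in Het, 0.23 in KO) and mitosis (0.33 in Het, -0.01 in KO).

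The reverse pattern was a higher response in KO cells, and no gene passed the test in this direction either. Vps37b, a subunit of the ESCRT-I complex that sorts cargo into endosomes, read 332, 208, 212 and 275 in the non-draining node and 127, 162, 189.8 and 147 in the draining node of Het cells. The 8 KO arrays read 167, 175, 289 and 295 and 287, 321, 262 and 234. All Het draining arrays lay below all Het non-draining arrays. In KO cells arrays 1 and 2 of the non-draining node were low and the nodes overlapped. The interaction was 0.99 ± 0.28, but 1.69 on arrays 1 and 2 and 0.29 on arrays 3 and 4. Ciart, a repressor of the circadian clock, had node differences of -0.39 and 0.68 and the smallest p in this direction, yet a second probe set of the gene gave an interaction of 0.16 where the brighter one gave 1.08. Its KO arrays read 22.1, 30.7, 36.3 and 27.7 and 48.2, 56.5, 44.6 and 39.4, with no overlap between the nodes, and its Het arrays 49.2, 55.9, 29.2 and 55.0 and 40.7, 33.2, 41.5 and 25.8, with overlap.

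Others of the 12 act in signalling. Dusp14, a phosphatase that dampens MAP kinases, read 183, 183, 152 and 143 in the non-draining node and 153, 153, 127 and 116 in the draining node in Het cells and 137, 145, 129 and 151 and 153, 215, 158 and 206 in KO cells. Its interaction was 0.62 on arrays 1 and 2 and 0.65 on arrays 3 and 4. Prkca, a protein kinase C, had node differences of -0.35 and 0.45, and its lowest group was the KO non-draining node with a mean of 56.0. Pde3b, which degrades cyclic AMP, had -0.23 and 0.22, and Nlrc3, which dampens innate and T cell signalling, -0.29 and 0.37; both genes are also expressed in T cells. Egfr and Tyw1 read between 31.9 and 44.0 and between 32.8 and 56.8, near the array medians; Gm4951 and Gen1, with the higher Het response, were dimmer still on most arrays. Stx2, a membrane fusion protein, had 0.88 ± 0.28, with KO draining array 2 at 146 and the other 3 between 67.0 and 83.6. Chd2, a chromatin remodeller, had -0.31 and 0.13, and Secisbp2l, a relative of a selenoprotein factor, -0.34 and 0.33. The transcript 0610040B10Rik read 53.3, 73.4, 85.2 and 112 and 132, 111, 135 and 139 in KO cells, with node differences of -0.19 and 0.71.

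Fosl2, an AP-1 transcription factor, had the smallest interaction p among 32 immediate early genes. It read 502, 499, 368 and 324 in the non-draining node and 276, 287, 228 and 205 in the draining node of Het cells. Among KO arrays the readings were 342, 419, 420.2 and 269.8 and 260.0, 446, 350.0 and 344. Each Het draining array lay below each Het non-draining array, the KO nodes overlapped, and the interaction was 0.70 ± 0.27, with 0.68 on arrays 1 and 2 and 0.72 on arrays 3 and 4. The list as a whole had a median of 0.01, with 17 of 32 members positive, against 47.7% of all genes.

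Markers of T cells, which a cDC1 sort should remove, had the widest gap of the 33 lists. All 18 measured T cell markers had a positive interaction, against 47.7% of all genes, with a median of 0.48. Of them 2 (Cd5 and Ubash3a) had an unadjusted p under 0.05, against 0.993% of all genes with the higher KO response. In Het cells 1 of 18 stood higher in the draining node, against 52.8% of all genes, with a median of -0.26. In KO cells 18 of 18 did, against 50.7% of all genes, with a median of 0.23. Within either genotype 0 members had an unadjusted p under 0.05. The summed intensities given above overlapped in all 4 groups. Cd5, a T cell surface receptor, read 340.1, 169, 232 and 280.4 in the non-draining node and 129, 209, 234 and 139 in the draining node of Het cells. The KO readings were 119, 113, 218 and 226 and 179, 205, 279 and 225. KO non-draining arrays 1 and 2 and Het draining arrays 1 and 4 were the low ones, and neither genotype had nodes without overlap; the interaction was 0.97 ± 0.38. Cd3e, a subunit of the T cell receptor complex, lay between 94.4 and 279 over the 16 arrays and Cd4 between 46.5 and 80.3, which put them at the 78.2 and 56.6 percentiles of all genes by level. The list's median was 0.68 on arrays 1 and 2 and 0.30 on arrays 3 and 4, with 17 and 18 of 18 members positive.

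Other cell types gave smaller or less stable values. Beside the counts that follow, 52.3% of all genes had a negative and 47.7% a positive interaction. B cell markers had a median interaction of -0.16, with 10 of 14 negative, but 0.14 on arrays 1 and 2 and -0.61 on arrays 3 and 4; their summed intensity was 839.5 to 1359 and 813 to 1343 in the Het non-draining and draining nodes and 1034 to 1516 and 969.5 to 1213 in the KO nodes. Ms4a1, which encodes the B cell antigen CD20, lay between 21.1 and 60.4. NK and cytotoxic markers had a median of 0.04, with 10 of 15 positive, and macrophage and monocyte markers 0.08, with 9 of 14 positive. Without KO draining array 2 the latter was 0.23, and on arrays 1 and 2 it was -0.05. Lyz2, the lysozyme of myeloid cells, had node differences of -0.53 in Het and -0.20 in KO cells. Plasmacytoid dendritic cell markers had a median of -0.10 (7 of 8 negative), or -0.01 without KO draining array 2, cDC2 markers 0.10 (10 of 13 positive, but a median of -0.03 on arrays 3 and 4), and migratory and Langerhans cell markers 0.08 (7 of 8 positive), the last 0.29 without KO draining array 2. Plasma cell markers had -0.07, neutrophil markers 0.06, lymph node stromal markers 0.005, erythroid markers 0.055 and sex-linked genes -0.08. The part of these cells in the results was not tested.

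**Figure D4:**
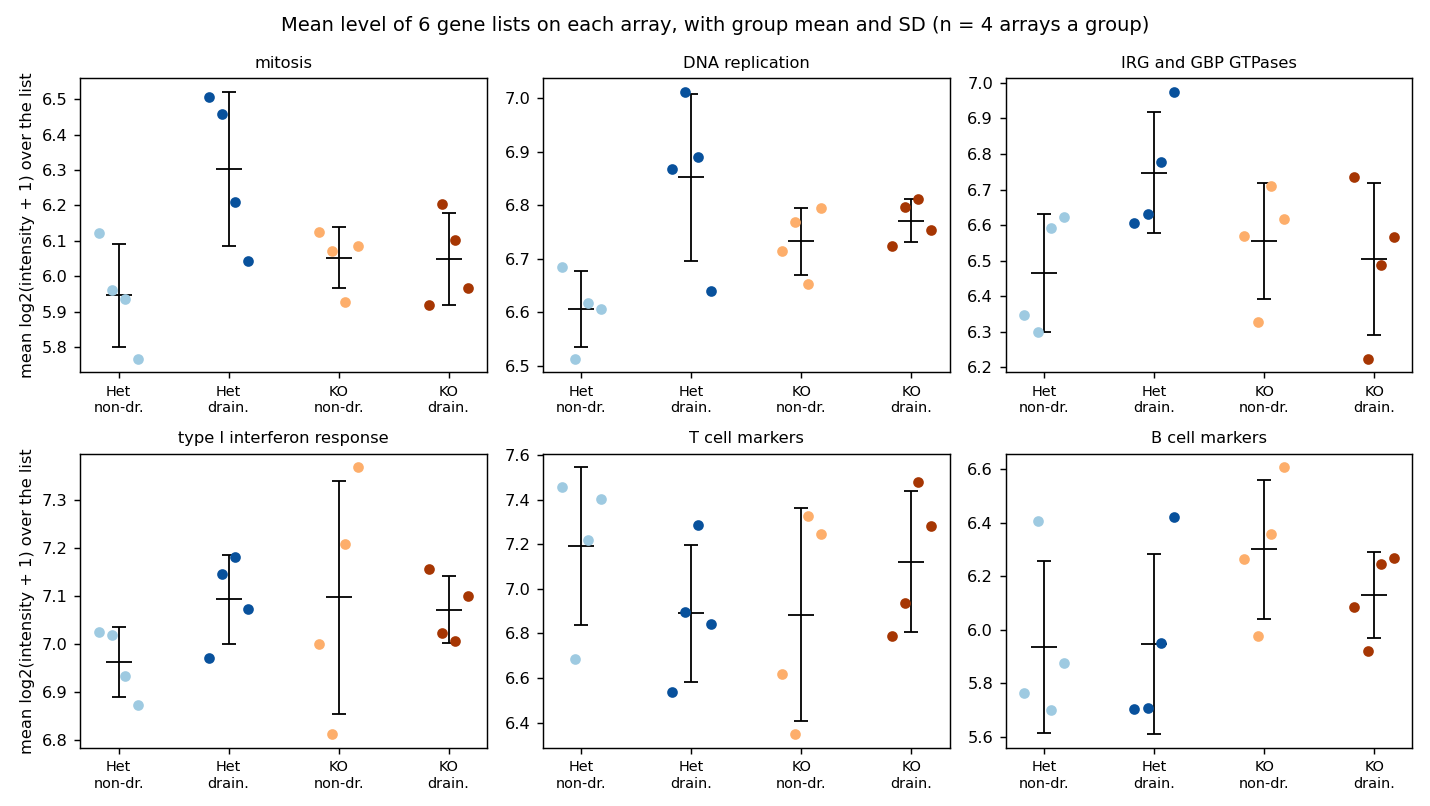
Mean log2(intensity + 1) over the genes of 6 lists on each array, with arrays 1 to 4 from left to right and bars for the group mean and SD (n = 4 arrays). For mitosis the Het draining arrays lay between 6.04 and 6.50 and the other 3 groups between 5.77 and 6.204, while the T cell list spread over 6.35 to 7.48 with all groups overlapping.

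A further reading took genes by the p of their node difference in one genotype and looked at them in the other. Arrays of the other genotype do not enter that difference, but they entered its p through the spread that all 4 groups share. The 50 genes of smallest p among those higher in the Het draining node had a median of 0.496 there and of 0.028 in KO cells, where 31 of 50 had the same sign, while 50.7% of all genes stood higher in the KO draining node. The 50 lower in the Het draining node had medians of -0.422 and -0.028, with 33 of 50 of the same sign, against 49.3% of all genes. Chosen in KO cells, the 50 higher genes had 0.348 there and 0.027 in Het cells (31 of 50, against 52.8% of all genes). The 50 lower genes had -0.337 and -0.043 (31 of 50, against 47.2%). Differences in the choosing genotype are inflated by the choice, so a smaller value in the other is no test of a genotype difference. Among the leading Het genes, Sdad1, a gene of ribosome assembly, had 0.59 in Het and 0.08 in KO cells, and Crem, a cyclic AMP-responsive factor, -0.47 and -0.10. Among the leading KO genes, Cenpn, a centromere protein, had 0.55 in KO and 0.26 in Het cells, so this gene of cell division stood higher in the draining node of both. Sdr42e1 had 0.38 in KO and 0.09 in Het cells, BC052040 0.76 and -0.09, Pbx4 -0.36 and 0.04, Atpaf1, an assembly factor of the mitochondrial ATP synthase, -0.65 and -0.13, and Slc35e1 -0.32 and 0.10.

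Heat shock chaperones had a median interaction of -0.12 (12 of 17 negative, 70.6%, against 52.3% of all genes). Stip1 had -0.26 ± 0.13, Hsph1 -0.44 ± 0.24 and Bag3 0.30 ± 0.16. Endoplasmic reticulum folding and stress genes had -0.08 (18 of 22 negative, 81.8%), with Creld2 at -0.61 ± 0.24 and Dnajb9 at 0.24 ± 0.14. Lysosome genes had -0.04 (14 of 24 negative, 58.3%), or 0.07 without KO draining array 2. Lipa, the lysosomal acid lipase, had -0.48 ± 0.21 and Gaa 0.31 ± 0.20. Glycolysis genes had -0.02 (10 of 17 negative, 58.8%), but -0.16 without Het draining array 4 and -0.21 on arrays 1 and 2. Hk3 had -0.56 ± 0.27 and Slc2a3 0.63 ± 0.40. The plot of list medians in the 2 sets of arrays shows which lists kept their sign.

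**Figure D5:**
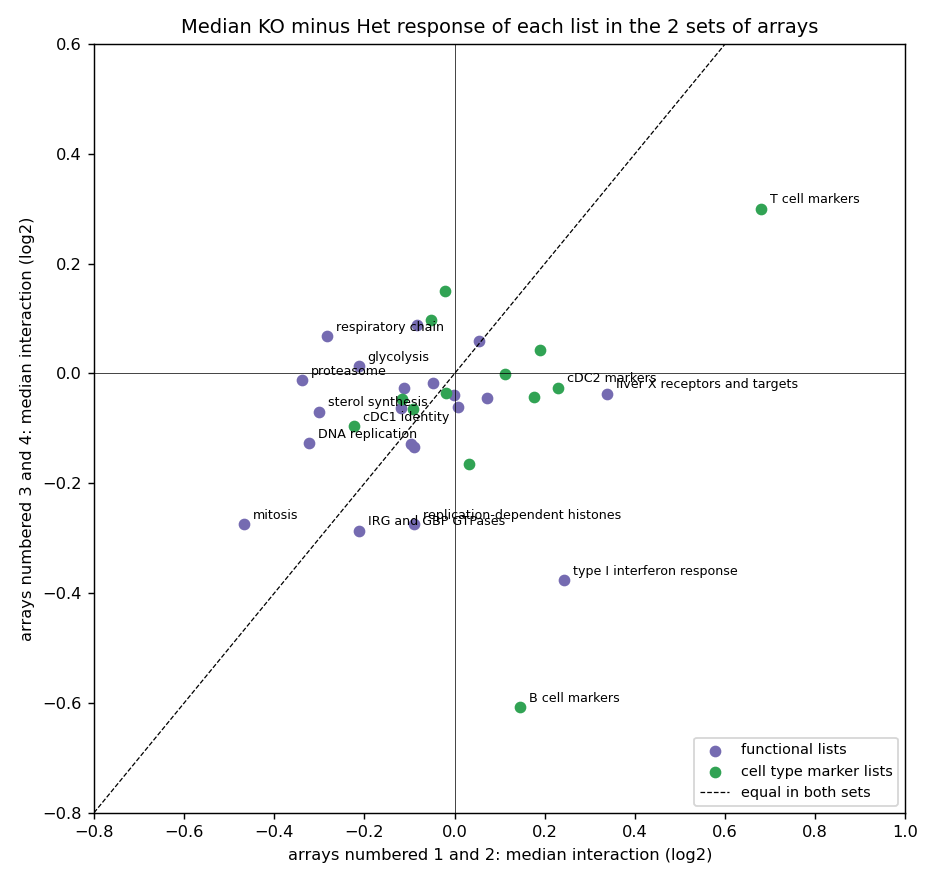
Median interaction of each of 33 gene lists on arrays numbered 1 and 2 (x axis) and on arrays numbered 3 and 4 (y axis), in log2 units; the dashed line marks equal values. T cell markers lie at 0.68 and 0.30 and mitosis at -0.47 and -0.28, on the same side of 0 in both sets, while type I interferon genes (0.24 and -0.38) and B cell markers (0.14 and -0.61) change side.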

How the data were processed

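Each of 16 RNA samples of cDC1 had its own Affymetrix array of the type Mouse Gene 1.0 ST, with 4 arrays in each of 4 groups taken from the sample titles. The deposited intensity values are on a linear scale, and the submitters' processing notes name RMA, a method that corrects background and gives all arrays 1 distribution; the software behind it is not given in the sources used here. Such scaling would remove a shift of all genes together and shrinks differences of dim genes.

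The platform annotation gives 1 symbol to 21789 of 35556 probe sets, several to 1621 and none to 12146. The probe set of highest mean stood for each of 19938 genes, and 999 genes had others. A separate limma test of the 13767 probe sets without a single symbol called 0 in the interaction, and 360 had an unadjusted p under 0.05. Values were tested two-sided as log2(intensity + 1) with limma 3.58.1 in R 4.3.3, in 1 fit of the 4 groups with 12 residual degrees of freedom and a prior of 4.35, and p-values were adjusted by Benjamini-Hochberg over all genes at 0.05. A difference is printed ± its limma standard error, and a group mean ± its SD. The script was tested on simulated data before use.

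Genes were named by rule: Wdfy4, the 12 of smallest interaction p in each direction, up to 4 members of smallest interaction p in each of 33 lists, and the 6 of smallest p in each direction within each genotype; small RNA and receptor segment genes were left out. A few further members (Bub1b, Gbp3, Gbp4, Gbp5, Gbp7, Cd3e and the cDC1 markers) were named after their values were seen. The comparison and the lists (20 of functions and 13 of cell types) were chosen with earlier results of these data known, and a list is described by counts and medians, with no test of its own. Motifs were searched in RefSeq promoters with Python 3.11.15, and plots were drawn with matplotlib 3.10.9. The alternatives were another pseudocount or none, a filter on dim genes, other probe set summaries and eBayes settings, array weights, replicate blocks, each set of arrays alone and each array left out; counts of list members on fewer arrays were added after seeing the data.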

Additional observations from a re-analysis of the deposited data

Results flagged for a closer look

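Some values stood apart within a group of 4 arrays, with a gap to the nearest array above the critical value of Dixon's test; the gap is given as a share of the group's range. This held for 5 of 132 list and group combinations and 7 of 100 gene and group combinations, where chance marks about 1 in 20.

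KO draining array 2 was the low array in 3 lists, as mean log2 levels. Cross-presentation genes read 8.20 there against 8.44 to 8.48 on the others (0.842), lysosome genes 8.23 against 8.56 to 8.59 (0.919), and migratory and Langerhans cell markers 8.996 against 9.71 to 9.80 (0.895). In the Het non-draining node, macrophage and monocyte markers read 6.68 on array 3 against 6.50 to 6.52 (0.897), and stromal markers 5.74 on array 4 against 5.60 to 5.61 (0.901).

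Among genes, Cxcl10 read 72.5 on KO draining array 2 against 108 to 116 (0.848), and Tacc3 99.1 on KO draining array 1 against 132 to 134 (0.946). Gen1 read 12.02 on Het non-draining array 2 against 19.4 to 20.98 (0.861), and 35.4 on KO non-draining array 1 against 16.5 to 17.7 (0.91). Chd2 read 202 on Het non-draining array 4 against 161 to 162 (0.97), and 0610040B10Rik 114 on Het non-draining array 2 against 91.7 to 94.7 (0.855). Stx2 read 68.7 on Het draining array 3 against 49.6 to 51.0 (0.916).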

How the results depend on the processing

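The number of genes at an adjusted p under 0.05 was 0 in the interaction under all 29 alternatives, by limma. In KO cells alone, arrays 3 and 4 gave 1 such gene, the mast cell protease Mcpt2 (-1.42, adjusted p 0.0117). Counts at an unadjusted p under 0.05 moved: the 198 genes with the higher KO response became 99 without dim genes, 305 with array weights, 306 with a fixed replicate block by number, 319 with a replicate block within genotype, 346 with a random replicate block, 300 with arrays 1-2 and 3-4 as a block and 387 on arrays 3 and 4. The 265 with the higher Het response became 146 without dim genes, 401 with array weights, 441 with the replicate block within genotype, 429 with the random block, 497 on arrays 1 and 2 and 440 on arrays 3 and 4. The cause was not tested, except that the filter on dim genes leaves 11247 genes. Over 91 genes there were 2634 comparisons, of which 2614 kept their direction and their side of the threshold and 20 reversed: Irf7 to 0.32 on arrays 1 and 2, and on arrays 3 and 4 Nsdhl to 0.012, Ndufa9 to 0.046 and Cenpn to -0.013. Gbp3 reversed to -0.059 on arrays 3 and 4 and to -0.095 without KO non-draining array 2. Gbp4 reversed with array weights (0.07) and without Het non-draining array 1 (0.027) or 2 (0.069), Het draining array 4 (0.016), KO non-draining array 3 (0.017) or KO draining array 2 (0.124) or 3 (0.003). Gbp5 reversed with array weights (0.027), on arrays 1 and 2 (0.157), and without Het non-draining array 2 (0.144), Het draining array 4 (0.076), KO non-draining array 4 (0.028) or KO draining array 2 (0.126) or 3 (0.011). With 1 array left out, Gbp4 ranged from -0.232 to 0.124 and Gbp5 from -0.305 to 0.144. Arrays of the same number in different groups had deviations that correlated at -0.056 to 0.481 (median 0.22, 18 of 24 pairs over 0.1). Within genotype the 4 Het pairs had 0.199 to 0.314, and KO pairs 1 to 4 had -0.014, 0.448, 0.197 and 0.481. Arrays of another number in the same set correlated as much (median 0.231, against -0.216 across sets), and not every pair passed 0.1, so the replicate numbers were not taken as pairs. The 4 arrays a group limit the precision, and KO draining array 2 had the lowest array weight, 0.255.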
